A study of Mus musculus with 6 samples.

Results

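The 35 genes described here carry out or control fatty acid oxidation and the use of ketone bodies. They were chosen by name from a fixed list, and their values were read from the deposited table by gene symbol, with all transcripts of a gene summed. All 35 were present among the 54242 gene symbols of the table, each with 1 gene identifier. RNA came from dorsal root ganglia, which lie along the spine and hold the cell bodies of sensory neurons. The animals were male C57bl/6 mice of 8 to 10 weeks, and ganglia L4-6 were taken. In the first group, called fed, mice ate ad libitum, and in the second, called fasted, they followed intermittent fasting for 10 days. The labels give killing after 24 hours without saying what the 24 hours follow, so it is not known whether the fasted mice had eaten shortly before. No allele, drug or injury is named for either group. Each group had 3 libraries, and the labels do not say if each came from 1 animal or from several. P-values thus rest on how far these libraries varied, and that spread may be technical. In both groups enzymes were used to dissociate the ganglia, a BSA gradient enriched the neurons, and polyadenylated RNA was sequenced.

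Long-chain fatty acids enter mitochondria as carnitine esters, made by CPT1 at the outer membrane, carried by the SLC25A20 exchanger and turned back to acyl-CoA by CPT2. Beta-oxidation then shortens the chain in repeated rounds of dehydrogenation, hydration, dehydrogenation and thiolysis, and passes electrons through the electron transfer flavoprotein to the respiratory chain. In fasting the liver turns much of the resulting acetyl-CoA into ketone bodies, which other tissues, nervous tissue among them, take up and burn. The nuclear receptor PPAR-alpha switches on many of these genes in fasted liver, heart and muscle.

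The unit is TPM, which divides by transcript length and gives each library a total of 1000000, so levels of different genes can be compared. The sequencing depth cannot be read from TPM and is unknown here. The 2 groups were compared with limma on log2(TPM + 1), over the 15097 genes that averaged 1 TPM or more. The adjusted p-values are Benjamini-Hochberg values over all of these, with a threshold of 0.05. Differences are on this log2 scale, fasted minus fed, and understate the change of low genes.

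Fed replicate 2 stood apart before any comparison. Its 14 skeletal muscle markers summed to 4259.1 TPM, against 331.63 and 466.12 TPM in the other fed libraries and 83.22 to 379.43 TPM in the fasted ones. Ckm, muscle creatine kinase, was at 490.0 TPM there and at 9.07 to 52.2 TPM elsewhere. The labelled tissue held its own markers in every library. Rbfox3, a neuronal nuclear protein, lay at 203 to 224 TPM, and the 15 neuronal markers summed to 20952 to 23175 TPM in the fed and 22831 to 24039 TPM in the fasted libraries. The summed markers of satellite glia, Schwann cells, fibroblasts, pericytes with smooth muscle, and adipocytes overlapped between the groups. Adipocyte markers summed to 96.5 to 154 TPM in the fed and 79.3 to 174 TPM in the fasted libraries. The sum of the 15 macrophage markers was lower in fasted libraries, at 124.77 to 145.56 against 172.28 to 204.76 TPM. So was the sum of the 14 endothelial markers, at 226.94 to 247.23 against 264.48 to 316.47 TPM, though 1 of the 14 was higher by itself. The sum of the 7 erythrocyte markers was higher, at 1717 to 3283 against 1285 to 1565 TPM. No marker on these lists was listed at 0 in every library. In bulk RNA, fewer cells of a type and less RNA per cell cannot be told apart. The part of these cell types in the values below was not tested, apart from values given without fed replicate 2.

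Of the 35 members, 34 reached the mean of 1 TPM and were tested. The remaining one, Cyp4a14, a fatty acid omega-hydroxylase and a strongly PPAR-alpha-dependent gene of fasted liver, was listed at 0 in all 6 libraries. The most abundant members were Etfa, Oxct1, Etfb, Acadl and Hadhb, with means over the 6 libraries of 182.8, 180.4, 171.9, 169.9 and 165.0 TPM. Their libraries overlapped from each gene to its neighbour in this order. Hadha and Ucp2 followed at 110.0 and 109.8 TPM. In all, 7 members lay above 100 TPM, 21 between 10 and 100 TPM and 6 between 1 and 10 TPM. The 6 lowest were Acot1, Pdk4, Acot2, Ehhadh, Ppara and Ucp3. The members above 100 TPM thus included Acadl, Hadhb and Hadha of beta-oxidation and both electron transfer subunits, besides Oxct1 of ketone use and Ucp2. The other enzymes of beta-oxidation ranged from Acadvl, just under 100 TPM, to Ehhadh at 4.31 TPM. Acads was the next lowest at 19.3 TPM. The receptor said to control many of these genes in other tissues, Ppara, averaged 1.41 TPM.

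**Figure D1:**
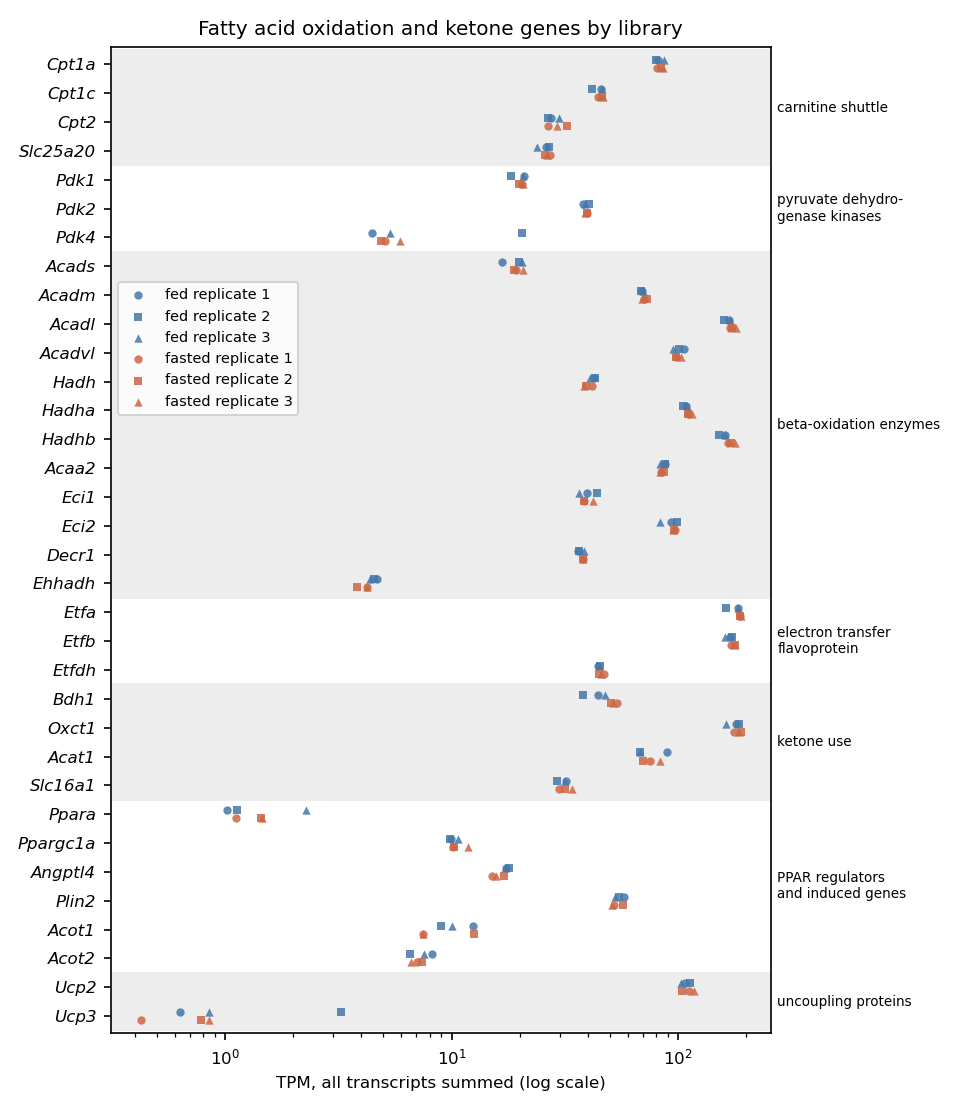
TPM of the 34 tested members in each library, on a log axis. Rows are genes grouped by role, blue symbols are the 3 fed and red symbols the 3 fasted libraries, and the symbol shape gives the replicate number. In most rows the 6 symbols lie close together, and the isolated blue squares of Pdk4 (20.4 TPM) and Ucp3 (3.26 TPM) are fed replicate 2.

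The comparison asks whether intermittent fasting shifted these genes in the ganglia, and no member passed the test. With limma, 0 of 34 members had an adjusted p under 0.05, against 0.00662% of all genes tested (1 of 15097), and the smallest adjusted p was 0.463. At an unadjusted p under 0.05 there were 2 members higher in fasted libraries, Bdh1 and Hadhb, and 0 lower, where 6.72% and 3.22% of all genes were so called. Of the 34, 22 were higher and 12 lower, beside 62.5% of all genes higher. With median-of-ratios scaling this became 18 higher and 16 lower, beside 50.9% of all genes. The median difference was 0.03 for the members and 0.03 for all genes tested. The groups did not overlap for 5 members that were higher in fasted libraries (Acadl, Hadha, Hadhb, Etfa and Bdh1) and for 2 that were lower (Ehhadh and Angptl4). Fed replicate 2 was the lowest library for each of the 5 higher members. Over all genes the shares without overlap were 12.7% higher and 5.07% lower, so with TPM as deposited the members' counts were near the background. Median-of-ratios scaling gave the same 5 and 2 members, beside 7.66% and 7.84% of all genes. With that scaling the count of higher members was above its share and that of lower members below, and no test was made of this.

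The intervals show how closely each difference was bounded. For 26 of the 34 members, the 95% interval of the difference, taken gene by gene, lay inside 1.2-fold in either direction, on the TPM + 1 scale. The same held for 52.4% of all genes tested and for 74.9% of the 9600 genes that averaged 10 TPM or more. The median level was 43.0 TPM for the members and 18.1 TPM for all genes tested. The members' median SD within groups was 0.07 on the log2 scale, against 0.09 for all genes and 0.07 for those at 10 TPM or more. The 8 members with a wider interval were Pdk4, Ehhadh, Bdh1, Acat1, Ppara, Acot1, Acot2 and Ucp3.

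**Figure D2:**
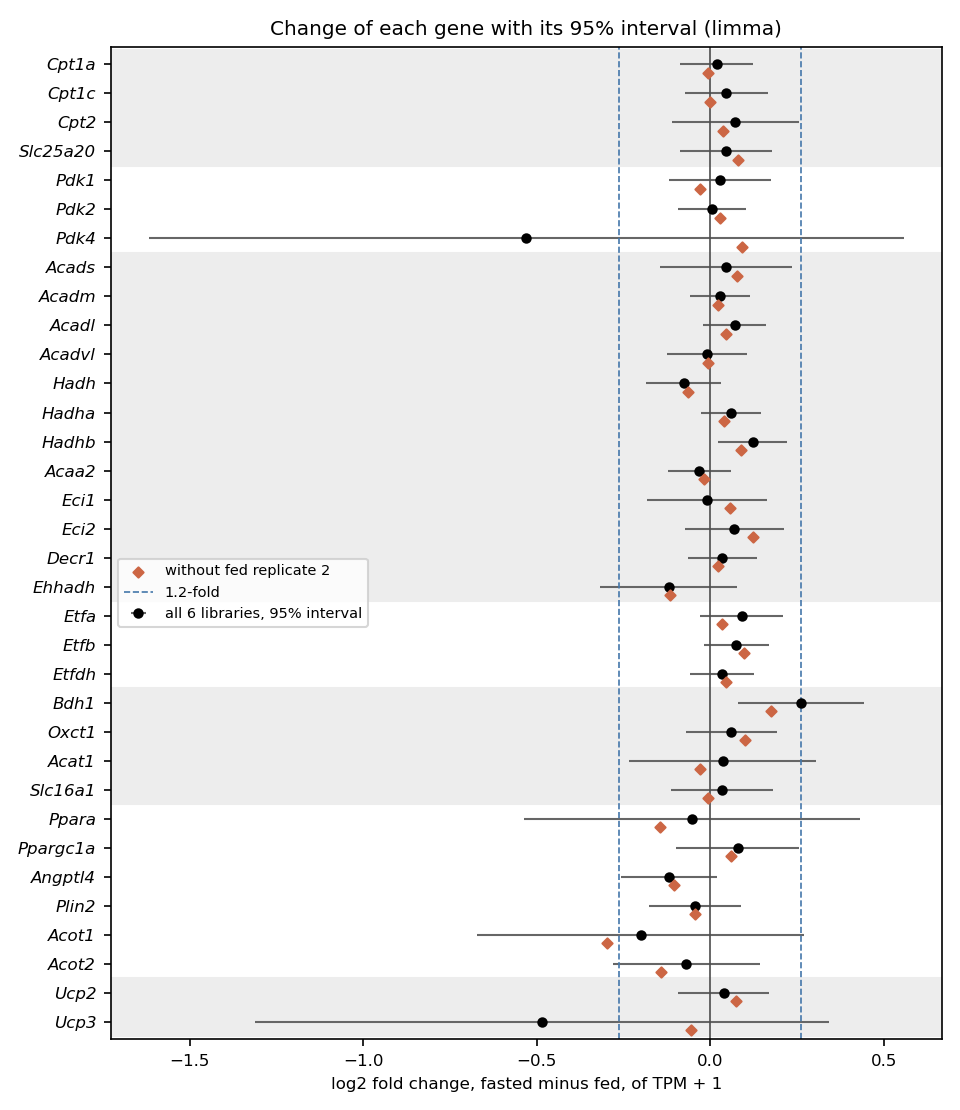
Difference of each tested member between fasted and fed libraries on the log2(TPM + 1) scale, with limma's 95% interval as a bar, and the same difference without fed replicate 2 as a red diamond. Dashed lines mark 1.2-fold. Most bars lie between the dashed lines, Bdh1 and Hadhb have bars that do not reach 0, and Pdk4 and Ucp3 have the widest bars and the largest shifts when fed replicate 2 is left out.

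The carnitine shuttle was alike in both groups. Cpt1a, the liver-type enzyme of the outer membrane and the main control point of the pathway (chromosome 19, 3322334 to 3385733, GRCm38), was at 81.5, 79.8 and 86.5 TPM in the fed and 80.8, 84.4 and 85.8 TPM in the fasted libraries. The groups overlapped, and the difference was 0.02 with a 95% interval of -0.09 to 0.12 (limma, adjusted p = 0.886). Cpt1c, the neuronal form that sits in the endoplasmic reticulum and has little transferase activity, was at 45.5, 41.5 and 45.9 against 44.4, 46.2 and 46.7 TPM. Cpt1a stood above Cpt1c in each library, by 1.79 to 1.92 times. The inner-membrane transferase Cpt2 was at 27.5, 26.6 and 29.8 against 26.7, 32.5 and 29.4 TPM. The exchanger Slc25a20 was at 26.2, 26.9 and 23.9 against 27.1, 25.8 and 26.5 TPM. All 4 group means were slightly higher in fasted libraries, by 0.02 to 0.07, though that of Cpt1a was lower with median-of-ratios scaling, quantile normalization or without mitochondrially encoded genes, and some of these signs rested on 1 library. Without fed replicate 2 the difference of Cpt1a was -0.0056 and that of Cpt1c 0.00034, and without fed replicate 3 that of Slc25a20 was -0.0043. All 4 intervals lay inside 1.2-fold.

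Pyruvate dehydrogenase kinases switch off the entry of pyruvate into the citric acid cycle, and Pdk4 is a PPAR target that fasting induces in muscle and heart. Of the 3 kinases among the members, Pdk2 was the highest at 38.2, 40.6 and 38.8 TPM in the fed and 39.5, 39.7 and 38.8 TPM in the fasted libraries. Pdk3, which is no member, was above it in every library, with a mean of 59.1 TPM. Pdk1 was at 20.8, 18.3 and 20.7 against 20.6, 19.8 and 20.8 TPM. Neither Pdk2 nor Pdk1 differed beyond the spread between libraries, and both intervals lay inside 1.2-fold. Pdk4 (chromosome 6, 5483351 to 5496309) was at 4.47, 20.4 and 5.33 TPM in the fed and 5.09, 4.86 and 5.89 TPM in the fasted libraries. Only fed replicate 2 was high, and the other 5 libraries lay between 4.47 and 5.89 TPM. The difference was -0.53 (interval -1.62 to 0.56, limma, adjusted p = 0.672) with all libraries and 0.09 (interval -0.19 to 0.37) without fed replicate 2. Within a library, Pdk4 was 0.503 of Pdk2 in fed replicate 2 and 0.117 to 0.152 of it in the others.

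Both uncoupling proteins of the list, inner-membrane carriers of the same family, lie next to each other on chromosome 7 (Ucp3 at 100472990 to 100486432 and Ucp2 at 100493337 to 100502020), and their levels were far apart. Ucp2, the widely expressed form, was at 107.8, 113.5 and 103.4 TPM in the fed and 111.5, 104.4 and 118.0 TPM in the fasted libraries. Ucp3, the muscle form, was at 0.63, 3.26 and 0.85 against 0.42, 0.78 and 0.85 TPM. As with Pdk4, fed replicate 2 was the only library apart, and the difference of Ucp3 went from -0.48 (interval -1.31 to 0.34, limma, adjusted p = 0.62) to -0.05 without it. Cpt1b, the muscle-type carnitine palmitoyltransferase, is no member and was looked up after these values were seen. It was at 0.083, 3.57 and 0.745 TPM in the fed and 0.448, 0.777 and 0.819 TPM in the fasted libraries. The library with the highest muscle markers also held the highest Pdk4, Ucp3 and Cpt1b.

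**Figure D3:**
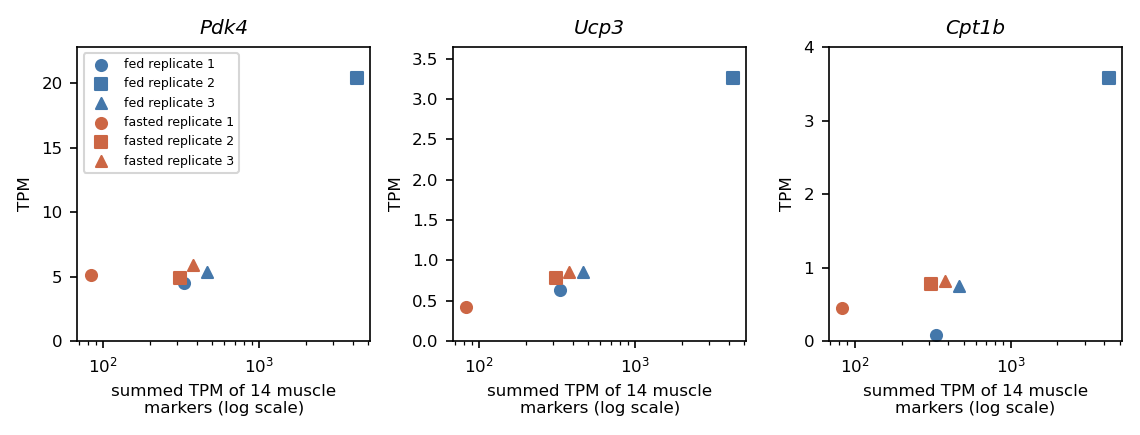
TPM of Pdk4, Ucp3 and Cpt1b in each library (vertical axes, from 0) against the summed TPM of 14 skeletal muscle markers in the same library (horizontal log axis). Fed replicate 2, the blue square at 4259.1 TPM of muscle markers, is the highest in each panel, and the other 5 libraries lie low in all 3.

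The 4 acyl-CoA dehydrogenases, which start each round of beta-oxidation on chains of different length, overlapped between the groups except for Acadl. Acadl, the long-chain form, was at 168.3, 160.1 and 168.8 TPM in the fed and 170.4, 172.4 and 179.4 TPM in the fasted libraries, so that each fasted library was above each fed one. The difference was 0.07 (interval -0.02 to 0.16, limma, adjusted p = 0.534), and 0.05 without fed replicate 2. Acadvl, the very-long-chain form, was at 105.8, 100.6 and 94.6 against 98.1, 98.0 and 102.8 TPM. Acadm, the medium-chain form, was at 69.2, 68.9 and 70.3 against 71.0, 72.6 and 69.1 TPM. The short-chain form Acads was lowest, at 16.8, 19.8 and 20.5 against 19.3, 18.9 and 20.7 TPM. Acadl exceeded Acadm by 2.33 to 2.60 times in each library.

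Hadha and Hadhb encode the alpha and beta subunits of the mitochondrial trifunctional protein, which carries out the last 3 steps of the cycle on long chains. Their genes lie head to head on chromosome 5 (Hadha at 30118304 to 30155162 on the minus strand, Hadhb at 30155248 to 30184593 on the plus strand) and share the bases between them. That stretch is shown because both members sat among those without overlap. It runs over 85 bases at chr5:30155163-30155247 (GRCm38.p6, plus strand, from the RefSeq promoter sequences), with each GC box, GGGCGG, in capitals.
Hadha-Hadhb: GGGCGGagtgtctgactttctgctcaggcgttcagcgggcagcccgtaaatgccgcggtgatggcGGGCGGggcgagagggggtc
The stretch is 69.4% G or C and holds 2 GC boxes. Hadhb was at 161.5, 151.0 and 161.4 TPM in the fed and 166.9, 171.4 and 177.7 TPM in the fasted libraries. Each fasted library was above each fed one, by 0.12 on average (interval 0.02 to 0.22, 1.09-fold, adjusted p = 0.483 with limma, unadjusted 0.023). Without fed replicate 2 the difference of Hadhb was 0.09, with an interval of -1.15e-05 to 0.18 that reached 0. Hadha was at 108.9, 104.8 and 109.4 against 110.5, 111.1 and 115.2 TPM, again without overlap. Its difference was 0.06 (interval -0.03 to 0.15), and 0.04 without fed replicate 2. Hadhb was the higher of the pair in every library. The Hadha to Hadhb ratio was 0.674, 0.694 and 0.678 in fed and 0.662, 0.648 and 0.648 in fasted libraries, lower without overlap. With 3 libraries against 3 the exact permutation test cannot go below p = 0.1, which it reached (two-sided, adjusted p = 0.8 over 8 ratios). Of the main transcript of Hadhb, 32% of the 31-base words also occur in transcripts of Gm9108, so reads could be split between these 2 genes.

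The other enzymes of the cycle lay close to their fed levels. Hadh, the dehydrogenase for short and medium chains, was at 42.5, 42.9 and 41.0 TPM in the fed and 41.8, 39.4 and 38.5 TPM in the fasted libraries. Acaa2, a thiolase of the mitochondrial matrix, was at 87.7, 87.8 and 83.4 against 83.7, 86.3 and 83.2 TPM. Eci1, Eci2 and Decr1 handle unsaturated chains. Eci1, an enoyl-CoA isomerase, was at 39.8, 43.9 and 36.4 against 38.4, 38.5 and 42.2 TPM. Eci2, its relative of mitochondria and peroxisomes, was at 93.5, 98.6 and 83.6 against 97.2, 96.5 and 95.2 TPM. Decr1, a dienoyl-CoA reductase, was at 36.2, 36.4 and 38.6 against 38.0, 38.0 and 37.9 TPM. For all 5 the groups overlapped and the interval lay inside 1.2-fold. Ehhadh, the bifunctional enzyme of peroxisomes and a PPAR-alpha target in liver, was at 4.69, 4.56 and 4.35 against 4.24, 3.81 and 4.23 TPM. It was the one enzyme of the 12 in this group with each fasted library below each fed one, by -0.12 (interval -0.32 to 0.08, limma, adjusted p = 0.606). Across the 12 enzymes, 7 were higher and 5 lower, with a median of 0.03 beside 0.03 for all genes. With median-of-ratios scaling Acadm was lower.

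Electrons from the acyl-CoA dehydrogenases pass to the electron transfer flavoprotein, made of the subunits Etfa and Etfb, and on to its ubiquinone oxidoreductase, Etfdh. Etfa was at 183.7, 163.5 and 184.4 TPM in the fed and 188.1, 188.2 and 189.0 TPM in the fasted libraries. The fasted libraries were above the fed ones without overlap, by 0.09 (interval -0.03 to 0.21, limma, adjusted p = 0.541), and by 0.03 without fed replicate 2. Etfb was at 168.9, 172.5 and 160.8 against 171.9, 178.8 and 178.4 TPM. Etfdh was at 44.1, 45.3 and 44.6 against 47.0, 44.6 and 45.8 TPM. Both subunits were near each other, with an Etfa to Etfb ratio of 1.06 ± 0.10 in fed and 1.07 ± 0.022 in fasted libraries (SD, n = 3 each). Etfdh lay well under them. All 3 group means were higher in fasted libraries, except that Etfdh was lower with quantile normalization, and all 3 intervals lay inside 1.2-fold.

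Ketone use held the member with the largest difference in the higher direction. Bdh1 interconverts beta-hydroxybutyrate and acetoacetate in mitochondria (chromosome 16, 31422280 to 31458901). It was at 44.2, 38.2 and 47.7 TPM in the fed and 53.5, 50.7 and 51.9 TPM in the fasted libraries. All 3 fasted libraries were above all 3 fed ones, by 0.26 (interval 0.08 to 0.44), or 1.2-fold with an interval of 1.06 to 1.36. The unadjusted limma p was 0.011 and the adjusted p 0.463, so this member did not pass. The difference was 0.18 to 0.33 with any 1 library left out. Oxct1, which activates acetoacetate with CoA and is the committing step of ketone use, was at 180.1, 186.6 and 163.3 against 176.7, 189.1 and 186.5 TPM. Acat1, the thiolase that splits acetoacetyl-CoA, was at 89.3, 67.6 and 67.6 against 75.2, 70.1 and 83.6 TPM. The monocarboxylate transporter Slc16a1, which carries ketone bodies and lactate across the plasma membrane, was at 32.1, 29.2 and 31.6 against 29.7, 31.7 and 33.9 TPM. For these 3 the groups overlapped, with differences of 0.03 to 0.06. Within a library, the ratio of Bdh1 to Oxct1 was 0.248 ± 0.044 in fed and 0.283 ± 0.018 in fasted libraries (SD, n = 3 each, exact permutation p = 0.3, adjusted p = 0.9).

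Aacs, which uses acetoacetate for lipid synthesis in the cytosol, was higher by 0.14 (interval 0.02 to 0.26, limma, adjusted p = 0.494). Fgf21, a hormone of fasted liver, stayed between 0 and 0.24 TPM. Neither gene is a member.

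**Figure D4:**
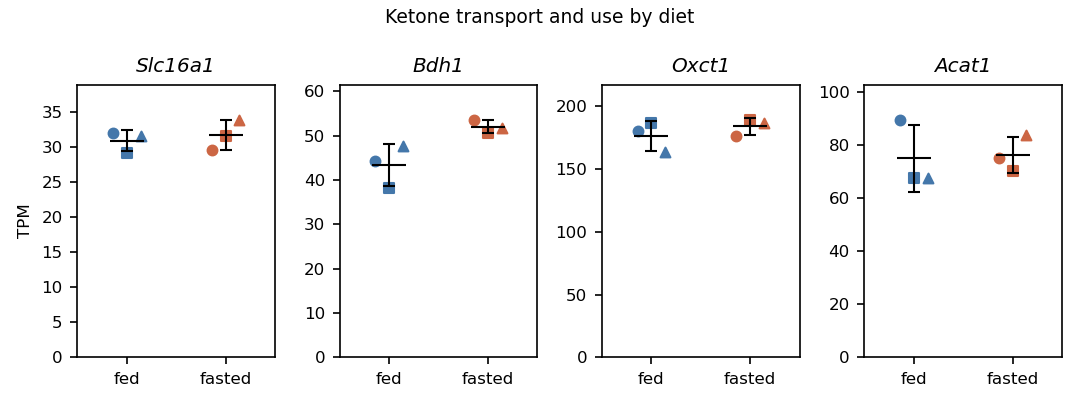
TPM of the transporter Slc16a1 and of 3 genes of ketone use (Bdh1, Oxct1, Acat1) in fed (blue) and fasted (red) libraries. Each symbol is a library, with the shape giving the replicate number, the wide line is the mean and the bar the SD (n = 3); axes start at 0 and differ between panels. The symbols of Bdh1 separate by diet, with the fasted libraries above, and those of the other 3 genes overlap.

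Regulators and PPAR-induced members were mostly low. Ppara was at 1.02, 1.13 and 2.29 TPM in the fed and 1.11, 1.44 and 1.46 TPM in the fasted libraries, and its interval was wide (-0.54 to 0.43). Ppargc1a, the coactivator PGC-1alpha of mitochondrial gene expression, was at 9.90, 9.81 and 10.6 against 10.2, 10.3 and 11.8 TPM. Angptl4, a secreted inhibitor of lipoprotein lipase that PPARs induce in fasted tissues (chromosome 17, 33773750 to 33781830), was at 17.4, 17.9 and 17.2 against 15.2, 17.1 and 15.8 TPM. Its fasted libraries were below the fed ones, by -0.12 (interval -0.26 to 0.02, limma, adjusted p = 0.523). Plin2, the coat protein of lipid droplets, was at 57.8, 55.0 and 52.5 against 52.1, 57.1 and 51.2 TPM. Of the 6 tested members of this role, 5 were lower after fasting; the median of the 6 was -0.06, beside 0.03 for all genes, and 0 passed. This count depended on which transcripts were summed. With protein-coding transcripts alone, the difference of Angptl4 turned to 0.13 and that of Plin2 was -0.0089. Acot1 and Acot2 stayed lower, at -0.30 and -0.07, with overlap. Coding Ppara averaged 0.91 TPM in the fed and 1.08 TPM in the fasted libraries, with overlap, and was too low to be tested. In fed replicate 3, the highest library for Ppara, the processed transcript Ppara-206 was at 1.42 TPM.

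Acot1 and Acot2 release free fatty acids from acyl-CoA in the cytosol and in mitochondria, and they lie side by side on chromosome 12 (Acot2 at 83987861 to 83993873 and Acot1 at 84009490 to 84018371). They are shown in sequence because reads of such close copies can be mixed. Of the 31-base words of the main Acot1 transcript, 29.2% also occur in Acot2 transcripts, and 29.9% of those of Acot2 occur in Acot1. The longest run of coding bases that both hold, 273 bases (887 to 1159 of the 1257 coding bases of Acot1, 1010 to 1282 of the 1359 of Acot2), is the following.
Acot1 and Acot2: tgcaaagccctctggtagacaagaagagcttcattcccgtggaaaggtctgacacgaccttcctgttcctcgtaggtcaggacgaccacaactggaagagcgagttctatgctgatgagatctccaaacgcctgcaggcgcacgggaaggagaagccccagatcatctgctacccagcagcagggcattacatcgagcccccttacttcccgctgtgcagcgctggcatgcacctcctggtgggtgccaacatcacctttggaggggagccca
Acot1 was at 12.5, 8.94 and 10.0 TPM in the fed and 7.45, 12.6 and 7.46 TPM in the fasted libraries, with an interval of -0.67 to 0.27. Acot2 was at 8.17, 6.58 and 7.56 against 7.03, 7.42 and 6.63 TPM. Both overlapped between groups, and fasted replicate 2 was the highest library for Acot1. In that library Acot1-201, the main coding transcript, held 42.2% of the gene's TPM, against 63.3% to 99.1% in the others. The other members shared less, except Hadhb, at 32% with Gm9108. Besides Hadhb, the largest shares of words in common with another gene were 15% for Eci2 (with Eci3), 11.8% for Acadm (with Gm5131) and 9.91% for Etfa (with Gm15285), and 21 of the 35 members shared none.

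Because the deposited values are per transcript, the members could be split by annotated transcript type (GENCODE release M21, GRCm38). For 24 members more than 90% of the TPM lay in protein-coding transcripts. For 3 the most abundant transcript was of another type. Hadha-201, annotated as a processed transcript, held 69.4% to 72.9% of Hadha in each library, and coding transcripts held 26.6% over all libraries. Angptl4-202, annotated for nonsense-mediated decay, held 82.3% to 89.8% of Angptl4. In Bdh1, the retained-intron transcript Bdh1-205 was the largest, at 38.8% to 44.4%. Coding transcripts held 13.1% of Angptl4 and 56.5% of Bdh1 over all libraries. The gene-level values of Hadha and Angptl4 thus rest mostly on transcripts not annotated as coding.

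Single transcripts did not pass either. Of the members' 189 transcripts, 71 reached a mean of 1 TPM, and 0 had an adjusted p under 0.05 with limma, against 0.0271% of all 33197 transcripts tested. The smallest adjusted p was 0.609, and 8 of the 71 had an unadjusted p under 0.05, beside 7.21% of all transcripts tested. Without overlap between groups, 11 were higher and 5 lower in fasted libraries, beside 9.38% and 4.98% of all transcripts. Of Bdh1, the retained-intron transcript Bdh1-205 was at 17.2, 15.9 and 20.5 TPM in the fed and 23.0, 22.5 and 22.3 TPM in the fasted libraries. The coding transcripts of Bdh1 summed to 26.4, 21.9 and 26.8 against 29.98, 27.6 and 29.0 TPM. Single coding transcripts differed in direction. The largest, Bdh1-201, was at 14.6, 9.85 and 16.4 against 13.4, 9.12 and 12.5 TPM, a difference of -0.20 with overlap. The smaller Bdh1-206 was at 3.73, 3.36 and 5.33 against 6.52, 6.85 and 9.40 TPM, higher without overlap (limma, adjusted p = 0.623). Of Etfb, the coding transcript Etfb-205 was at 49.9, 52.2 and 45.8 against 57.4, 69.0 and 56.0 TPM, while the larger Etfb-201 overlapped. Of Hadhb, Hadhb-201 was at 116.8, 105.9 and 119.6 against 125.8, 133.5 and 128.2 TPM.

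Summing protein-coding transcripts alone, an analysis added after the data were seen, gave tighter groups for some members. Of 33 members then tested, 0 passed (limma, 0 of 13235 genes), and 24 were higher and 9 lower, with a median of 0.04 beside 0.04 for all genes. At an unadjusted p under 0.05 there were 5, all higher (Acadm, Hadhb, Bdh1, Acat1 and Ppargc1a), where 11.2% of all genes were so called. The groups did not overlap for 10 members higher in fasted libraries (Acadm, Acadl, Hadhb, Etfa, Etfb, Etfdh, Bdh1, Oxct1, Acat1 and Ppargc1a) and for 1 lower (Ehhadh), beside 14.4% and 4.84% of all genes. With median-of-ratios scaling, Etfb, Etfdh and Oxct1 dropped out, which left 7 higher and 1 lower beside 8.19% and 8.22% of all genes. Both member counts in the higher direction were above these shares, but the members were not drawn at random and no test was made of it. Hadha, without overlap in the full sum, overlapped here, at 29.6, 29.5 and 27.7 against 32.6, 28.2 and 27.8 TPM.

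The effect of the split can be followed in 3 members. Coding Acadm was at 62.6, 62.3 and 61.0 TPM in the fed and 66.4, 68.9 and 66.8 TPM in the fasted libraries, by 0.12 (interval 0.03 to 0.20, limma, adjusted p = 0.397). The retained-intron transcript Acadm-210 was at 4.33, 1.42 and 6.61 against 0, 0 and 0.71 TPM, and the full sum of Acadm overlapped. Coding Acat1 was at 66.8, 61.8 and 67.6 against 69.5, 70.1 and 75.0 TPM, by 0.13 (interval 0.01 to 0.24, limma, adjusted p = 0.436). Its processed transcript Acat1-203 was at 22.5, 5.84 and 0 against 5.63, 0 and 8.59 TPM, which set the spread of the full sum. Coding Ppargc1a was at 8.26, 7.94 and 7.89 against 9.21, 8.55 and 10.1 TPM, by 0.18 (interval 0.02 to 0.35, limma, adjusted p = 0.438). How reads are divided between transcripts of 1 gene is an estimate, and its error is not in the table.

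**Figure D5:**
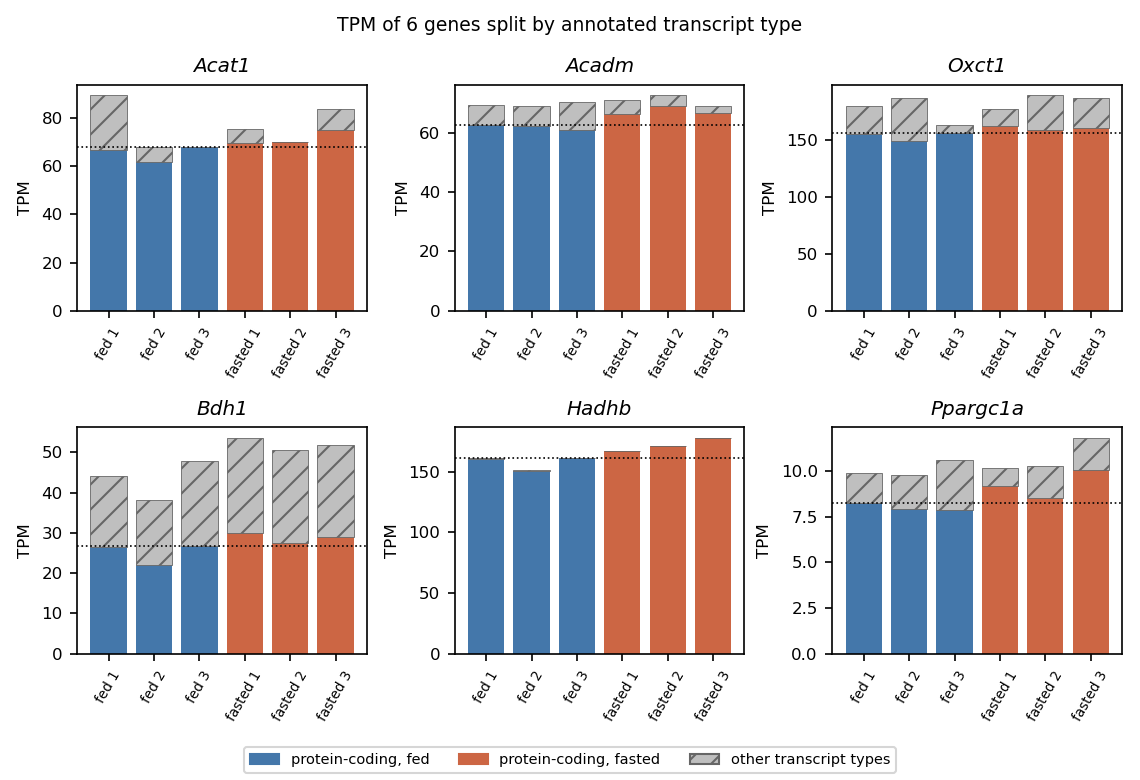
TPM of Acat1, Acadm, Oxct1, Bdh1, Hadhb and Ppargc1a in each library, split into protein-coding transcripts (blue for fed, red for fasted) and other annotated types (hatched grey); axes start at 0 and differ between panels. The dotted line is the highest coding value among fed libraries. The 6 genes were picked from the 10 of 33 members whose coding sums were higher in fasted libraries without overlap. Each red part therefore ends above the dotted line in all 6 panels, which says nothing of the members not drawn. The full bars of Acat1, Acadm, Oxct1 and Ppargc1a overlap between the groups.

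Promoter sequences from RefSeq (GRCm38.p6, 250 bases before to 50 after each start) matched 30 of the 35 members, in 33 windows of 32851. They were searched on both strands for 4 motifs. The direct repeat bound by PPAR with RXR, 2 copies of AGGTCA with any 1 base between them, was in 0 of the 33 windows and in 0.0396% of all windows. The nuclear receptor half-site AAGGTCA, which overlaps the repeat and the next motif, was in 1 window, of Acadm, and in 4.72% of all. The estrogen-related receptor element TCAAGGTCA was in 0 windows and in 0.423% of all. The GC box, GGGCGG, was in 21 windows and in 35.7% of all. The members' windows were 59% G or C, against 53.8% over all windows. The half-site of Acadm is shown because it was the sole match to a nuclear receptor motif, at chr3:153944856-153944893 (minus strand), with the match in capitals as it reads on the opposite strand.
Acadm: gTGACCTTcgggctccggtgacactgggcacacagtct
A match describes letters in this window and is not evidence of binding. Absence of the direct repeat is no sign that binding is lacking, since so rare a motif would seldom occur in 33 windows. Bases further from the start were not searched. Angptl4, Cyp4a14, Acat1, Acaa2 and Decr1 matched no window.

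The rest of the pathway was followed in 9 further lists with 160 genes, of which 131 were tested. With limma 0 passed, and 83 were higher and 48 lower, beside 62.5% of all genes higher. The median was 0.04, beside 0.03 for all genes. The counts of higher genes by list given below use TPM as deposited. With median-of-ratios scaling the share of all genes that were higher was 50.9%. At an unadjusted p under 0.05 there were 12 higher and 5 lower, and 20 and 7 did not overlap between groups, beside the shares of all genes given above for the full sums. In fatty acid uptake and activation, 9 of 19 were higher. Acsl3, an acyl-CoA synthetase, was at 53.8, 49.04 and 56.5 TPM in the fed and 59.5, 58.9 and 60.1 TPM in the fasted libraries, and Slc27a1, a fatty acid transporter, was lower by -0.19 with overlap. Among genes of carnitine and malonyl-CoA control, 4 of 9 were higher, with the carnitine importer Slc22a5 at 12.4, 11.8 and 10.9 against 12.8, 13.8 and 13.8 TPM. In pyruvate entry 9 of 12 were higher. Pdp1, the phosphatase that opposes the Pdk kinases, differed by 0.13 (interval 0.02 to 0.23) and Dld, a shared subunit of the oxoacid dehydrogenase complexes, by 0.14 (interval 0.02 to 0.25), both without overlap.

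Among other mitochondrial acyl-CoA enzymes 15 of 21 were higher, and in peroxisomal oxidation 12 of 16. Hibadh, of valine breakdown, differed by 0.13, and Hsd17b4, the second bifunctional enzyme of peroxisomes, by 0.14, both higher without overlap, while the peroxisomal thioesterase Acot8 was lower by -0.21. In ketone synthesis and transport, 6 of 11 were higher. In lipid droplets and lipolysis, 10 of 18 were higher. Dgat2, which makes triglyceride, was at 16.4, 16.4 and 16.1 against 18.2, 18.6 and 20.2 TPM (difference 0.21, interval 0.08 to 0.34, limma, adjusted p = 0.423). Plin4, a droplet protein, was at 1.66, 3.16 and 1.116 TPM in fed libraries, the highest in fed replicate 2, and was lower by -0.66. Among transcriptional regulators, 13 of 19 were higher. Tfam, which maintains mitochondrial DNA, was at 23.1, 21.8 and 19.2 against 24.9, 28.3 and 27.9 TPM (difference 0.33, interval 0.14 to 0.52, limma, adjusted p = 0.423). Of the PPAR-induced genes outside oxidation 5 of 6 were higher, and Gpd1, of the glycerol phosphate shuttle, was highest in fed replicate 2 at 34.9 TPM. Of the 9 lists, the smallest adjusted p was 0.423.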

How the data were processed

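The 35 members and all gene lists were chosen with earlier results of these data known. The deposited values are TPM per transcript for 6 libraries, made by the authors, and each library sums to 1000000. Salmon 1.6.0, DESeq2 1.34.0, Trim Galore 0.6.6 and FastQC 0.11.9 are named, per the submitters' processing notes, as are the builds mm10 and GRCm38. The roles and order of these tools and the annotation release are not given in the sources used here. Of 140992 transcript versions, 98.7% were found in GENCODE release M21, which gave coordinates and transcript types.

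TPM was summed per gene symbol and compared as log2(TPM + 1), for genes that averaged 1 TPM or more, with limma 3.58.1 in R 4.3.3 (a model with group alone, eBayes with a trend, two-sided, Benjamini-Hochberg over all genes, threshold 0.05). Transcripts were tested the same way. TPM keep no depth, so no count test was run and no counting interval can be given. Within-library ratios were compared by exact permutation tests (Python 3.11.15, SciPy 1.17.1; figures with matplotlib 3.10.9). The scripts were tested on simulated data. Shared sequence was counted as 31-base words of each member's main transcript that occur in transcripts of other genes of the table.

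Named by rule were all members, up to 2 transcripts of each by share of TPM, the 2 genes with the smallest p in each direction of each pathway list (a selection of these is printed), and 1 defining marker per cell type. Cpt1b, Pdk3, Fgf21 and Bdh1-206 were named after their values were seen. Alternatives were other pseudocounts, filters and scalings, a replicate block, array weights and leaving out each library; protein-coding transcripts alone were added after seeing the data. Some items of the table are not reported here. The columns of the table all belong to these 6 libraries.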

Additional observations from a re-analysis of the deposited data

How the results depend on the processing

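No member and no gene of the pathway lists passed the threshold under any of the 16 alternatives, and the smallest adjusted p of a member in any was 0.338. Among all genes, 1 passed; this was 0 with no filter and with protein-coding transcripts alone, 2 with pseudocounts of 0.1 and 0.5, and 1 to 6 when each library was left out. Among all transcripts, 9 passed; this was 4 with a mean of at least 5 TPM, 0 with the replicate block, and 4 (without fasted replicate 1) to 15 (without fasted replicate 2) when each library was left out. The members' median of 0.03 was 0.0037 with median-of-ratios scaling, -0.000205 with quantile normalization, 0.0026 without mitochondrially encoded genes and 0.012 to 0.035 when each library was left out, lowest without fasted replicate 3; the median of all genes moved from 0.031 to 0.0019, 0.010 and 0.00059 under those 3 scalings.

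The sign turned for 15 members in 38 of 540 values, none of them called, and never for the other 19. With array weights Eci1 was 0.0073. With median-of-ratios scaling Cpt1a was -0.012, Pdk1 -0.0018, Pdk2 -0.026 and Acadm -0.0026. With quantile normalization Cpt1a was -0.017, Pdk2 -0.023, Acadm -0.0026, Etfdh -0.0061 and Ucp2 -0.0013. Without mitochondrially encoded genes Cpt1a was -0.014, Pdk1 -0.0029, Pdk2 -0.027 and Acadm -0.0037. With coding transcripts alone Acadvl was 0.017 and Angptl4 0.13. With 1 library left out at a time, the ranges that crossed 0 were -0.050 to 0.030 for Acadvl, -0.074 to 0.057 for Eci1, -0.18 to 0.17 for Ppara, -0.013 to 0.030 for Pdk2, -0.031 to 0.17 for Acat1, -0.013 to 0.080 for Slc16a1, -0.0034 to 0.084 for Ucp2, -0.040 to 0.099 for Acads, -0.0056 to 0.052 for Cpt1a, -0.029 to 0.058 for Pdk1, -0.89 to 0.091 for Pdk4 and -0.0043 to 0.079 for Slc25a20. Of the log2 ratios, Pdk1/Pdk2 ran from -0.061 to 0.075, Pdk4/Pdk2 from -0.97 to 0.079 and Etfa/Etfb from -0.064 to 0.074. The cause of these shifts was not tested, except that fed replicate 2 alone set the Pdk4 values.

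Libraries with the same replicate number correlated at 0.093, 0.114 and 0.066 after group means were removed, and each library correlated best with its own number, which is a hint from the data; no label ties a number to an animal or day. With the replicate block 1 gene, 0 members, 0 transcripts and 0 ratios passed. With 3 libraries a group and no depth, differences of low members such as Ppara and Ucp3 were not bounded closely.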
